A study of Mus musculus with 5 samples.

Results

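The B-lineage transcription factors described here are 10 genes out of 28692 in the deposited count tables: *Ebf1*, *Pax5*, *Tcf3*, *Foxo1*, *Ikzf1*, *Ikzf3*, *Bach2*, *Lef1*, *Pou2af1* and *Irf4*. They were chosen by name, and all 10 were detected. The bone marrow came from 5 C57BL/6J mice, 8 weeks of age and not irradiated, each given 1000 BCR-ABL1 pre-B acute lymphoblastic leukemia (pre-B ALL) cells through the tail vein. One animal was taken at day 0, straight after the transfer, and 1 each at days 3, 6, 9 and 12, so the day 0 animal had received leukemia cells too. Marrow flushed from long bones was pooled with collagenase digests of the crushed bone and measured by droplet-based 3' single-cell RNA sequencing. Each day was 1 mouse and 1 library, so no test between days was possible, a day and a mouse cannot be told apart, and every value below describes these libraries.

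B cells arise from multipotent progenitors in steps that a small network of DNA-binding proteins controls. TCF3 (also called E2A), EBF1 and FOXO1 open the B cell program in early progenitors, and PAX5 then holds cells to the B lineage. In pro-B cells the immunoglobulin heavy chain is joined, large pre-B cells divide, and small pre-B cells stop dividing and rearrange the light chain. IKZF1 (Ikaros), IKZF3 (Aiolos), IRF4 and BACH2 act in the passage out of the dividing stage and again in mature B cells, and plasma cells shut PAX5 and BACH2 down.

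On GRCm38, from the GENCODE annotation, all 10 are protein-coding genes. *Ebf1* lies at chr11:44617317-45008091 on the plus strand, *Pax5* at chr4:44524757-44710487 on the minus strand, *Tcf3* at chr10:80409514-80433647 on the minus strand and *Foxo1* at chr3:52268336-52353221 on the plus strand. *Ikzf1* lies at chr11:11685003-11772926 (plus), *Ikzf3* at chr11:98464902-98546031 (minus), *Bach2* at chr4:32238804-32586108 (plus), *Lef1* at chr3:131110471-131224356 (plus), *Pou2af1* at chr9:51213708-51240080 (plus) and *Irf4* at chr13:30749226-30766976 (plus). Another annotated gene of the same strand lies within the bounds of 6 of the 10, and no reads were assigned again here.

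*Ebf1*, *Pax5* and *Pou2af1* had the most alike profiles of all pairs among the 10 (below), and the 250 bases before a RefSeq start of each (GRCm38.p6) are shown for that reason. *Foxo1* is added because its window holds the palindrome known for EBF1. Of the 10, 9 have windows in the RefSeq table, 14 in all. The motifs searched on both strands were the EBF1 palindrome (TCCC and GGGA with 2 bases between), CAGNTG (E-box, read by TCF3), GTAAACA (FOXO), ATGCAAAT (octamer), TGGGAA (Ikaros), CTTTGAT (TCF/LEF), TGAGTCA (AP-1-like, close to that of BACH2) and the ETS-IRF composite (GGAA and GAAA with 2 bases between). Capitals mark any match, and no window of the 10 genes holds more than 1. The windows are chr11:44619978-44620227 (plus strand) for *Ebf1*, chr4:44710695-44710944 (minus) for *Pax5*, chr9:51213440-51213689 (plus) for *Pou2af1* and chr3:52268087-52268336 (plus) for *Foxo1*, each written 5′ to 3′ on its own strand.
Ebf1: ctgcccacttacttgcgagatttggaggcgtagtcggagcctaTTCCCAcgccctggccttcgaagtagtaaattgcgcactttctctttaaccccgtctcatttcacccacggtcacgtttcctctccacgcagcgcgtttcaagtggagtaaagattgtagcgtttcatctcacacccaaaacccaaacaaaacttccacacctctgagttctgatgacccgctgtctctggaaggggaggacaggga
Pax5: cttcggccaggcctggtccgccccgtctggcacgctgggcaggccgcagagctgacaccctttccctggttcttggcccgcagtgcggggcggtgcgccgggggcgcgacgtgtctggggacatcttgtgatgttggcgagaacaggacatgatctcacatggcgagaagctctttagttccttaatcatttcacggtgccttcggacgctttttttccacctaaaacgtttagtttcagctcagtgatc
Pou2af1: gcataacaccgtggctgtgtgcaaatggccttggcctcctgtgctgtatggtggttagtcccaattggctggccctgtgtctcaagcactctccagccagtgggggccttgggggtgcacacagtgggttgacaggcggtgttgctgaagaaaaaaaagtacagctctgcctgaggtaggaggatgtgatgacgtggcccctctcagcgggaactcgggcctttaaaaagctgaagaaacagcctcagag
Foxo1: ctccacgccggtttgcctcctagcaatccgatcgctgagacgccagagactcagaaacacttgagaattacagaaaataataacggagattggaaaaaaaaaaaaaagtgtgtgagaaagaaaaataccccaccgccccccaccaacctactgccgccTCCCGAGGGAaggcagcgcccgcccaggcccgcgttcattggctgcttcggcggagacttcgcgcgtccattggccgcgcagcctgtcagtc
The EBF1 palindrome of *Foxo1* (TCCCGAGGGA) begins 92 bases before the start, and 0.779% of 32851 windows of the same length hold such a match. The *Ebf1* window shown holds 1 Ikaros match (TTCCCA), as do 21.6% of all windows. Another *Ebf1* window, chr11:44617850-44618099, holds no match. Beyond these, 1 of the 14 windows, for *Lef1*, holds an E-box (44.8% of all windows) and 1, for *Bach2*, an ETS-IRF match (2.30%). No window of the 10 genes holds the FOXO, octamer, TCF/LEF or AP-1-like letters, which are in 3.17%, 1.60%, 3.21% and 4.46% of all windows. A match is a description of letters only.

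The libraries held 33425695 to 43554233 unique molecular identifiers (UMIs), and 4870 to 6944 barcodes per library with at least 500 UMIs and at most 10% mitochondrial UMIs were kept as cells. Pairs of libraries shared 40 to 61 of these barcodes, where random draws would share 36.8 to 58.9. Days 3 and 6 shared the most, 61 where 39.9 would be drawn. Clusters were named from marker genes without use of the 10 factors, and the ending "-like" marks that these names come from markers. The pro-B-like, cycling pre-B-like and small pre-B-like classes held 204, 414 and 570 cells, mature B-like cells 2092, plasma-like cells 61, plasmacytoid dendritic (pDC)-like cells 712, conventional dendritic (cDC)-like cells 185 and the earliest progenitors (ST-HSC and MLP-like) 251. At day 12 only 10 pro-B-like, 17 cycling and 17 small pre-B-like cells were left, so these stages are described over 4 libraries. A level is the summed UMIs of a gene per 10000 UMIs of its class in 1 library, and it compares a gene with itself between classes, not 1 gene with another. Values in classes under 20 cells are not used, and intervals are 95% intervals that cover counting error only.

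The factors that open the B cell program, *Ebf1*, *Tcf3* and *Foxo1*, and the lineage keeper *Pax5* did not share 1 course. As a share of class UMIs, *Ebf1* had 2 peaks, in pro-B-like and in small pre-B-like cells, with a low between them in the dividing cells. Its level in pro-B-like cells was 46.2, 53.1, 41.4 and 40.6 UMIs per 10000 at days 0, 3, 6 and 9, with intervals from 37.6 to 58.9 over the 4 libraries. In small pre-B-like cells it was 51.5, 61.4, 55.8 and 50.3. Between these peaks, the cycling pre-B-like cells with much *Igll1*, which encodes the surrogate light chain, had levels of 9.42, 14.3, 13.7 and 15.3. The pro-B-like and small pre-B-like ranges overlapped, and the dividing cells lay below both in all 4 libraries. Median depths were 10426 to 18399 UMIs in these dividing cells, 2766 to 3419 in pro-B-like and 1453 to 1847 in small pre-B-like cells. A lower level therefore need not mean fewer UMIs per cell. In mature B-like cells *Ebf1* stood at 17.3, 15.02, 16.4, 16.8 and 14.2 at days 0 to 12, a narrow band in 5 mice.

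*Pax5* differed in that it held its level into mature B-like cells. It was at 1.83, 1.33, 1.61 and 1.78 in pro-B-like cells, at 3.23, 2.76, 2.84 and 2.47 in small pre-B-like cells and at 1.96, 2.08, 2.17, 2.41 and 2.47 in mature B-like cells. Within the mature B-like cells the cluster with the most *Ms4a1* (CD20) reached 2.21 to 3.16, a range that overlapped that of small pre-B-like cells. *Tcf3* was highest in cycling pre-B-like cells with little *Igll1* (3.48 to 4.74) and in small pre-B-like cells (3.57 to 4.34), 2 ranges that overlapped. It was lower in the mature B-like clusters, at 1.73 to 2.04 in the *Ms4a1*-high cells and at 0.563 to 1.01 in the mature B-like cells with most *Ighd*. *Foxo1*, which also drives the *Rag* genes, followed the course of *Ebf1*. It was at 1.43, 0.590, 1.37 and 1.31 in pro-B-like cells, where the day 3 value rests on 4 UMIs, at 0.206, 0.228, 0.400 and 0.178 in the *Igll1*-high cycling cells, and at 1.78, 1.82, 1.65 and 1.38 in small pre-B-like cells.

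**Figure D1:**
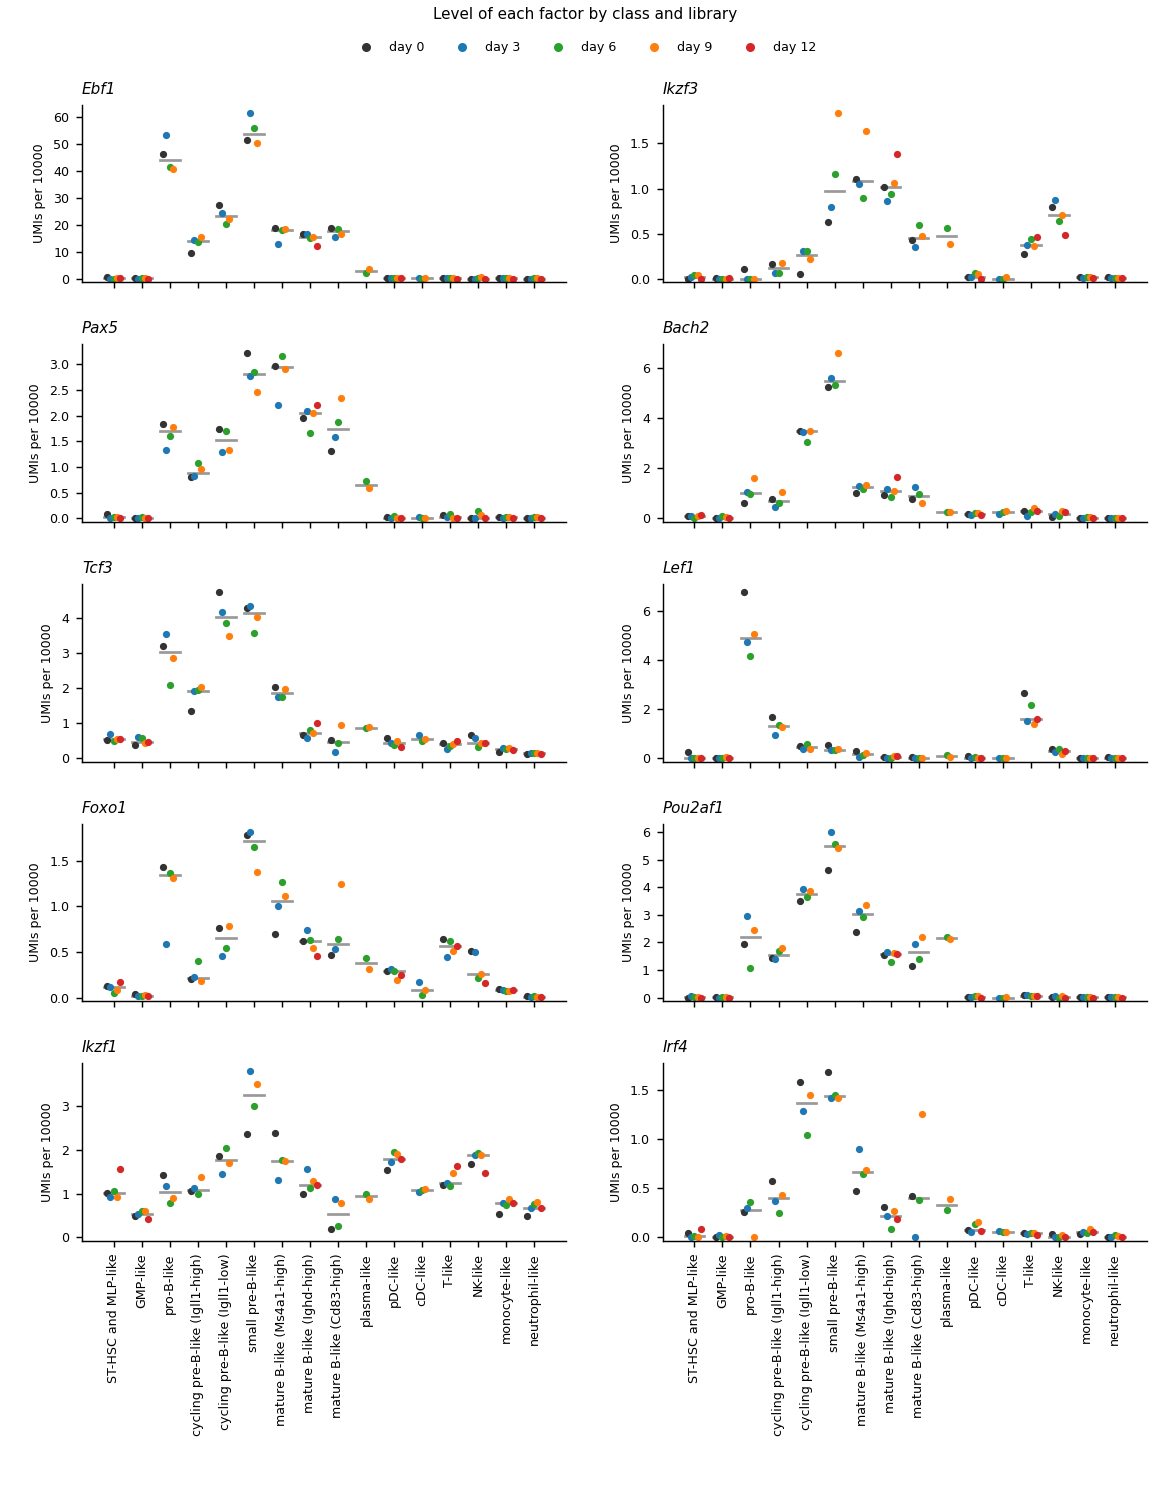
Level of each of the 10 factors (UMIs per 10000 UMIs of the class, linear axis from 0, 1 panel per gene) in 16 classes. Each point is 1 library coloured by day and each grey bar is the median over libraries. *Ebf1* peaks in pro-B-like and in small pre-B-like cells, *Lef1* in pro-B-like cells with a lesser level in T-like cells, and *Ikzf1* has its highest median in small pre-B-like cells.

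*Lef1*, a partner of beta-catenin that is known in pro-B and T cells, was the one factor of the 10 that was highest in pro-B-like cells in 4 of 4 libraries. Its levels there were 6.77, 4.72, 4.18 and 5.05. They were 1.67, 0.959, 1.35 and 1.25 in *Igll1*-high cycling cells and 0.530, 0.316, 0.310 and 0.376 in small pre-B-like cells, so that among these 3 stages no library of a later one reached a library of an earlier one. In mature B-like cells it was 0.0617, 0.0205, 0.0426, 0.121 and 0.137, which rests on 1 to 10 UMIs per library. T-like cells carried 2.65, 1.51, 2.18, 1.37 and 1.59.

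The Ikaros family members went apart from each other. *Ikzf3* was nearly absent from pro-B-like cells, with 3 UMIs at day 0 and none at days 3, 6 and 9, where 3 UMIs would be 0.443, 0.179 and 0.178 per 10000. In small pre-B-like cells it stood at 0.626, 0.790, 1.16 and 1.84 and in mature B-like cells at 0.910, 0.884, 0.869, 1.24 and 1.17, so these ranges overlapped. It was also present in NK-like cells at 0.80, 0.878, 0.639, 0.710 and 0.486. *Ikzf1* had UMIs in every class, but its level was below the free RNA of the same library (defined below) in every library of GMP-like, monocyte-like, neutrophil-like and plasma-like cells. Small pre-B-like cells (2.36, 3.79, 3.00 and 3.51) had its highest level in 3 of 4 libraries. Pro-B-like cells, at 1.43, 1.18, 0.775 and 0.892, overlapped the earliest progenitors (0.913 to 1.56).

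*Bach2*, a repressor that keeps B cells from plasma cell fate, *Irf4*, which acts in light-chain rearrangement and again in plasma cells, and *Pou2af1*, a cofactor of octamer-binding proteins, came up at the second pre-B step. *Bach2* was at 0.622, 1.03, 0.954 and 1.61 in pro-B-like cells, at 3.48, 3.44, 3.02 and 3.48 in *Igll1*-low cycling cells and at 5.25, 5.61, 5.32 and 6.60 in small pre-B-like cells. *Irf4* was at 0.256, 0.295, 0.358 and 0 in pro-B-like cells, on 0 to 7 UMIs, and at 1.69, 1.42, 1.45 and 1.42 in small pre-B-like cells. *Pou2af1* went from 1.94, 2.95, 1.07 and 2.44 to 4.62, 6.00, 5.56 and 5.43 over the same stages. For all 3 the 4 small pre-B-like libraries lay above the 4 pro-B-like libraries, and all 3 were lower again in mature B-like cells.

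Ratios of levels were taken within each library, and a gene was counted when it lay past 2-fold in the same direction in every library used. Only genes with at least 50 UMIs, summed over both classes and all libraries used, entered. A gene nearly absent from 1 class thus enters through the class where it is high, which tilts these counts, for all genes as well. Classes are clusters of the same cells, so these are descriptions and no p-value is given. From the earliest progenitors to pro-B-like cells, 7 of 8 factors with enough UMIs lay higher (*Ebf1*, *Pax5*, *Tcf3*, *Foxo1*, *Bach2*, *Lef1* and *Pou2af1*), against 5.36% of 5632 genes higher and 3.43% lower (8.79% in all). All of these but *Tcf3* reached the minimum only with the UMIs of pro-B-like cells, and *Ikzf3* and *Irf4* did not reach it. The median log2 ratio was 0.09 over all these genes. *Tcf3* was 4.25 to 6.03 times higher in pro-B-like cells, and *Pax5* 20.8 to 88.5 times, on 1 or 2 UMIs per library in the progenitors, with counting intervals from 5.46 to 3853. With TMM scaling the same 7 passed, while the split of all genes went from 302 higher and 193 lower to 226 and 271. *Ikzf1* was the exception, at 0.734 to 1.41 times, and it did not lie on 1 side. *Lef1* gave no UMI in the progenitors of days 3 and 6, where 3 UMIs would be 0.0453 and 0.0546 per 10000. At day 0, 12 of 16 *Ebf1* UMIs and 6 of 6 *Lef1* UMIs of the 22 progenitor cells came from a single cell each.

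From pro-B-like to cycling pre-B-like cells 3 of 10 factors were past 2-fold, all lower, against 5.13% of 6505 genes lower and 5.29% higher (10.4% in all). *Ebf1* was at 0.317 to 0.439, *Foxo1* at 0.260 to 0.531 and *Lef1* at 0.157 to 0.214 of the pro-B-like level. With TMM scaling (trimmed mean of M values, which sets libraries level on their common genes) in place of total UMIs, only *Lef1* of these was still past 2-fold in every library and *Irf4* was past it upward, while the split of all genes went from 344 higher and 334 lower to 509 and 197. The other 7 factors were not past 2-fold on 1 side in every library. Between the 2 kinds of cycling cells, *Igll1*-low over *Igll1*-high, *Bach2* (3.26 to 7.54 times), *Irf4* (2.75 to 4.11) and *Pou2af1* (2.13 to 2.78) were higher and *Lef1* lower, at 0.293 to 0.420, against 3.02% of genes higher and 2.21% lower (5.23% in all). Against pro-B-like cells, *Igll1*-high cells alone had the same 3 of 9 factors lower, against 7.32% of genes lower and 6.19% higher (13.5% in all). Median depths of the 2 kinds ranged over 10426 to 18399 and 4190 to 5376 UMIs per cell.

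From cycling to small pre-B-like cells 5 of 10 factors were past 2-fold, against 7.19% of 6736 genes higher and 7.63% lower (14.8% in all). *Ebf1* was 2.83 to 3.51 times, *Foxo1* 3.40 to 5.80 times, *Ikzf3* 4.85 to 9.45 times and *Bach2* 2.64 to 3.55 times higher, while *Lef1* was at 0.347 to 0.427. *Pax5* (1.97 to 2.99), *Ikzf1* (1.83 to 3.06) and *Pou2af1* (1.97 to 2.54) were higher in each library without passing 2-fold in all. With the *Igll1*-high cycling cells alone as the start, 9 of 10 passed (all but *Tcf3*), 8 higher and *Lef1* lower, against 12.2% of 5552 genes higher and 9.24% lower (21.4% in all), at median depths of 10426 to 18399 and 1453 to 1847 UMIs. With the *Igll1*-low cells as the start 1 of 10 passed, *Ikzf3* at 2.61 to 11.501 times, against 2.98% of genes higher and 7.13% lower (10.1% in all). Its highest ratio rests on a level of 0.0544 in *Igll1*-low cells, which was 0.394 of the free RNA level of that library. Only 2.86% of those cells held an *Ikzf3* UMI. In this comparison *Ikzf3* reached the count minimum only with the UMIs of small pre-B-like cells. Over all genes the median log2 ratio was 0.19 and the split was 484 higher and 514 lower, or 267 and 742 with TMM scaling, under which the 5 factors passed as well. After thinning to 500 UMIs, *Ebf1* alone still passed. *Bach2* had a mean log2 ratio of 0.66 in place of 1.68. *Foxo1* (2.14 in place of 2.09) and *Ikzf3* (2.50 in place of 2.58) kept mean ratios of similar size. *Lef1* failed too, as it did with means over cells (-0.87 in place of -1.26) and with either other mitochondrial limit.

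From small pre-B-like to mature B-like cells 7 of 10 factors were lower and none higher, against 3.93% of 6797 genes lower and 2.15% higher (6.08% in all). The lower factors were *Bach2* (0.172 to 0.220 of the small pre-B-like level), *Tcf3* (0.189 to 0.307), *Irf4* (0.210 to 0.357), *Ebf1* (0.245 to 0.336), *Pou2af1* (0.328 to 0.431), *Ikzf1* (0.363 to 0.428) and *Lef1* (0.0650 to 0.321). The median log2 ratio was -1.59 over the 10 factors and -0.28 over all genes. *Pax5* (0.607 to 0.979) and *Ikzf3* (0.676 to 1.45) stayed within 2-fold in each library. With TMM scaling *Ikzf1* and *Pou2af1* were no longer past 2-fold in every library, and the genes went from 146 higher and 267 lower to 278 and 156. Into the *Ms4a1*-high cluster alone, *Bach2*, *Ebf1* and *Tcf3* were lower, 3 of 10 against 2.89% of genes lower and 1.68% higher (4.57% in all). Between mature B-like clusters, *Tcf3* was past 2-fold, lower in *Ighd*-high than in *Ms4a1*-high cells at 0.321 to 0.468, as 1 of 9 against 1.70% of genes lower and 0.989% higher (2.69% in all). From *Ighd*-high to *Cd83*-high cells 0 of 9 were, against 2.71% of genes.

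Plasma-like cells had at least 20 cells at days 6 and 9 only. There *Ebf1* (0.131 and 0.207 of the mature B-like level), *Pax5* (0.331 and 0.247) and *Bach2* (0.255 and 0.212) were past 2-fold lower, 3 of 9 factors against 14.8% of 4687 genes lower and 4.05% higher (18.9% in all). Of these, *Pax5* and *Bach2* reached the count minimum only with the UMIs of mature B-like cells. *Pou2af1* stayed at its mature level, at 2.19 and 2.14 per 10000 in plasma-like cells, or 1.20 and 0.915 times. *Irf4* was at 0.281 and 0.386 on 9 and 11 UMIs. Immunoglobulin genes took 25.5% to 33.7% of the UMIs of plasma-like cells and 1.78% to 1.90% of those of mature B-like cells, and the median log2 ratio of all genes was -0.49. Under TMM scaling the same 3 factors passed, with 331 genes higher and 336 lower in place of 190 and 694. *Bach2* no longer passed with means over cells (mean log2 ratio -1.41 in place of -2.02), nor *Pax5* after thinning (-1.34 in place of -1.77).

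**Figure D2:**
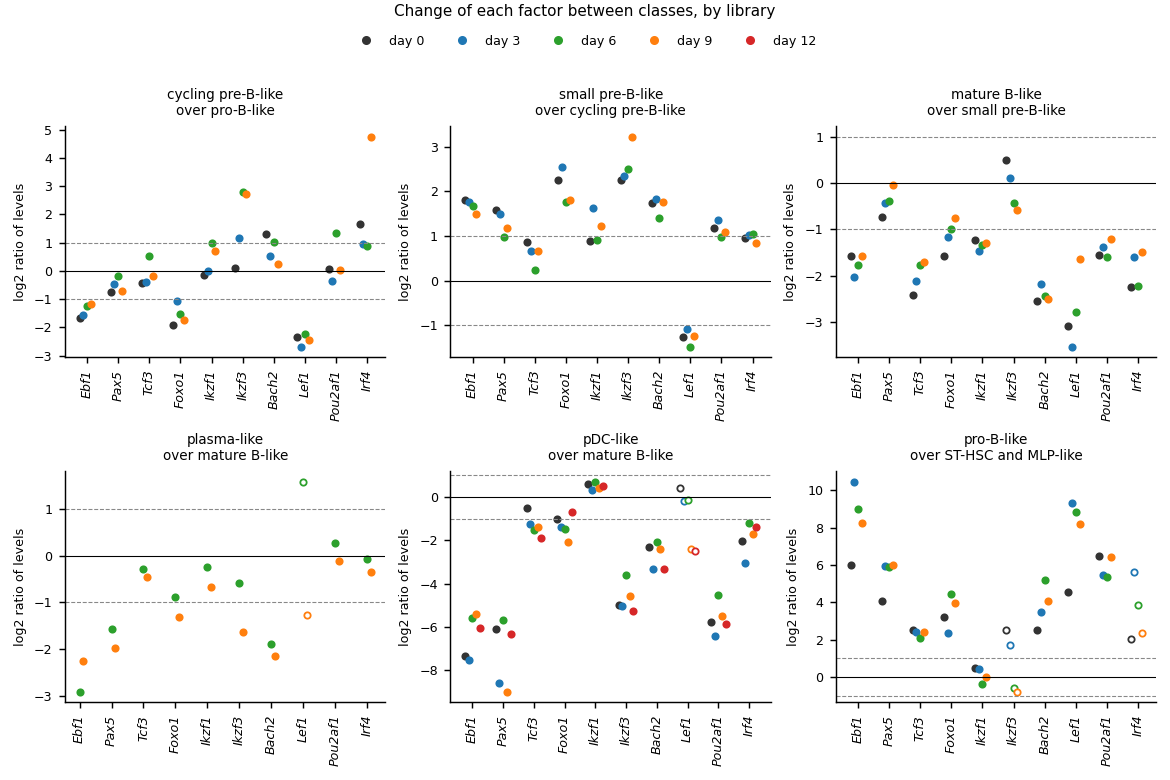
Log2 ratio of the level of each factor between 2 classes within each library (0.5 UMI added to each sum), for 6 pairs of classes. Points are libraries coloured by day, open points are genes with under 50 UMIs in that comparison, and dashed lines mark 2-fold. Between small pre-B-like and mature B-like cells 7 of 10 factors lie below the lower line in all 4 libraries.

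Dendritic cells share part of their ancestry and some regulators with B cells. Compared with mature B-like cells, 6 of 9 factors were lower in pDC-like cells in all 5 libraries (*Ebf1*, *Pax5*, *Ikzf3*, *Bach2*, *Pou2af1* and *Irf4*) and none higher, against 3.19% of 8303 genes lower and 6.82% higher (10.0% in all). *Pax5*, *Ikzf3*, *Pou2af1* and *Irf4* reached the count minimum only with the UMIs of mature B-like cells. *Irf4* no longer passed with means over cells (mean log2 ratio -1.66 in place of -1.87) or after thinning (-0.86). *Pax5* had 1, 0, 4, 0 and 0 UMIs in pDC-like cells, and *Ebf1* was at 0.0965, 0.0753, 0.340, 0.389 and 0.185 per 10000, below the level in the free RNA of the same library in 5 of 5. *Ikzf1* stood apart, at 1.54, 1.71, 1.95, 1.91 and 1.79, which was 1.24 to 1.64 times the mature B-like level. *Foxo1* (0.289, 0.312, 0.293, 0.190 and 0.247) and *Tcf3* (0.560, 0.430, 0.359, 0.475 and 0.309) were lower than in mature B-like cells without passing 2-fold in every library. In cDC-like cells against pDC-like cells, 0 of 5 factors with enough UMIs were past 2-fold in all 3 libraries used, against 4.37% of genes higher and 6.56% lower (10.9% in all). From the earliest progenitors to granulocyte-monocyte progenitor (GMP)-like cells 0 of 4 were, against 2.85% of genes lower and 3.92% in all, with *Tcf3* at 0.692 to 1.17 times and *Ikzf1* at 0.261 to 0.648 times.

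The free RNA of a library, taken from barcodes with at most 100 UMIs, is a yardstick for the classes outside the B lineage. Of 8 such classes, *Ikzf1* was above the free RNA in every library in pDC-like, T-like and NK-like cells, and *Foxo1* in the same 3. *Lef1* and *Ikzf3* were above it in T-like and NK-like cells. *Ebf1*, *Pax5*, *Tcf3*, *Bach2*, *Pou2af1* and *Irf4* were above it in every library in 0 of the 8. *Tcf3* was nonetheless at 0.492 to 0.680 in the earliest progenitors, above the free RNA in 4 of 5 libraries.

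Shares of cells with a UMI rise with depth, so each cell was thinned to 500 UMIs, with no cell left out. After thinning, 83.8% to 90.5% of small pre-B-like cells and 83.0% to 90.5% of pro-B-like cells held an *Ebf1* UMI, where neutrophil-like cells, which should lack it, had 0.168% to 0.825%. Unthinned, the shares were 96.3% to 100%, 100% and 0.697% to 4.51%, at median depths of 1453 to 1847, 2766 to 3419 and 3176 to 3671 UMIs. All 10 factors had a larger thinned share in small pre-B-like than in neutrophil-like cells in each of the 4 libraries. How many of all genes did so was not counted, so this does not set the factors apart from other genes. For *Ikzf1* the background class itself was at 2.87% to 3.88%, and its level there, 0.499 to 0.80, lay below the free RNA in 5 of 5 libraries. *Lef1* was seen in 19.1% to 38.1% of thinned pro-B-like cells and 6.67% to 14.8% of T-like cells, with 0% to 0.165% in the neutrophil-like class (unthinned 76.2% to 83.0%, 28.3% to 42.1% and 0.0721% to 1.02%).

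Counted together, a thinned small pre-B-like cell held UMIs of 1.94 to 2.103 of the 10 factors on average, and no other class of at least 20 cells reached that in any library. Pro-B-like cells held 1.51 to 1.74, *Igll1*-low cycling cells 1.39 to 1.66 and *Igll1*-high cycling cells 0.889 to 1.15. Mature B-like clusters ranged over 0.850 to 1.41, plasma-like cells were at 0.583 and 0.375, and pDC-like cells were at 0.0345 to 0.188. Neutrophil-like cells held 0.0416 to 0.0632. Without thinning the order was another: *Igll1*-high cycling cells held 5.82 to 6.63, *Igll1*-low cycling cells 5.31 to 6.03 and plasma-like cells 4.42. Pro-B-like cells then held 4.075 to 4.47 and small pre-B-like cells 3.87 to 4.24. Median depths were 10426 to 18399 UMIs in *Igll1*-high cycling cells and 1453 to 1847 in small pre-B-like cells.

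**Figure D3:**
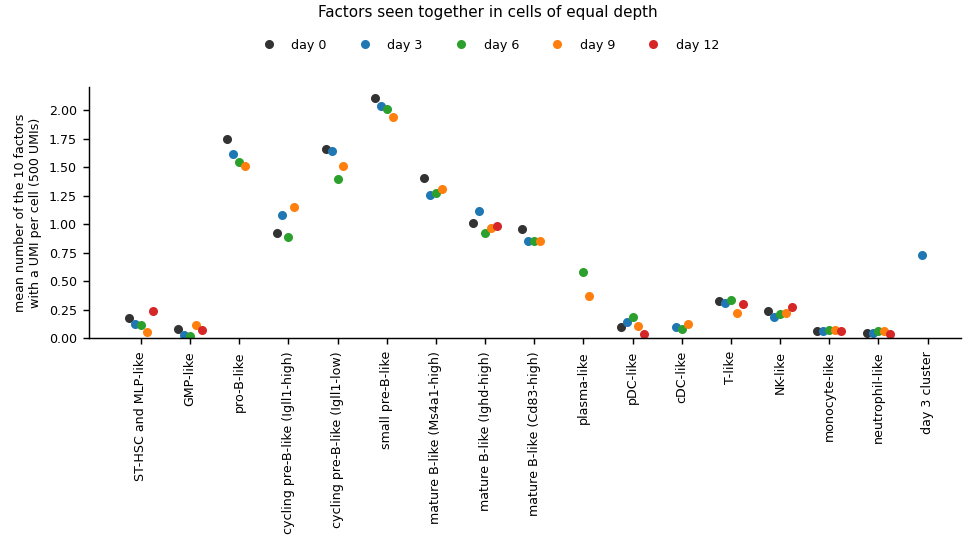
Mean number of the 10 factors with at least 1 UMI per cell after each cell was thinned to 500 UMIs (axis from 0), by class. Points are libraries coloured by day. Small pre-B-like cells, at 1.94 to 2.103, lie above every other class, and the separate cluster of day 3 is at 0.732.

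Profiles were compared over 52 pairs of class and library with at least 50 cells, from 15 classes, as Pearson's r of log2(level + 0.1). The points share libraries and depth, so r is a description with no p-value. *Ebf1* was most like *Pou2af1* (r = 0.98), *Cd79a* (0.98) and *Pax5* (0.98) among 12215 genes, and *Cd79a* (0.99) and *Ebf1* (0.98) were among the 3 genes most like *Pax5*. *Cd79a* encodes a chain of the B cell receptor complex. *Pou2af1* was most like *Ebf1*, *Pax5* and *Chst3* (0.97). *Bach2* and *Irf4* shared their most alike gene, *2010007H06Rik* (0.94 and 0.95), followed by *Cpm* and *Cecr2* (0.94 each), with *Pou2af1* the third for both (0.94 each).

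The other 5 kept company outside this group. *Tcf3* was most like *Bcl7a* (0.96), *Chchd10* (0.93) and *Slc1a5* (0.93), and *Foxo1* most like *Slamf6* (0.94), *Fbxl12* (0.92) and *Rhoh* (0.92). *Ikzf3* was nearest to *Cd2* (0.93), *Tmem243* (0.89) and *S1pr1* (0.89). *Lef1* was nearest to *Socs2* (0.86), *Sit1* (0.83) and *Slc11a2* (0.81), and *Ikzf1* to *Atp1b1* (0.81), *Zfp592* (0.79) and *Ddx17* (0.78). Within the 10, r ran from 0.23 between *Pax5* and *Lef1* to 0.98 between *Ebf1* and *Pou2af1*.

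Known targets of the network were followed as a list of 7 B cell surface and signalling genes (*Cd79a*, *Cd79b*, *Blk*, *Blnk*, *Cd72*, *Bank1* and *Cd22*). From the earliest progenitors to pro-B-like cells all 5 with enough UMIs were higher, where 5.36% of all genes were. Their mean log2 ratios ran from 2.58 for *Cd72* to 6.61 for *Cd79a*. From pro-B-like to cycling cells *Cd22* was higher and *Blnk* lower (-1.44) of 6, against 5.29% of all genes higher and 5.13% lower. From cycling to small pre-B-like cells 3 of 6 were higher and none lower (*Cd72* 1.51, *Cd79a* 1.61 and *Cd79b* 2.16). Of all genes, 7.19% were higher and 7.63% lower at this step. From small pre-B-like to mature B-like cells, where 7 of the 10 factors were lower, 0 of the 7 targets were lower and 2 were higher, *Cd22* (1.96) and *Bank1* (3.80). Of all genes, 3.93% were lower and 2.15% higher at this step. In plasma-like cells 6 of 7 were lower, where 14.8% of all genes were: *Cd72* (-1.66), *Cd79a* (-1.79), *Cd79b* (-1.85), *Cd22* (-1.99), *Blk* (-2.02) and *Bank1* (-2.78). In pDC-like cells 5 of 7 were lower, where 3.19% of all genes were: *Blk* (-1.94), *Cd79b* (-4.66), *Cd22* (-4.68), *Bank1* (-6.52) and *Cd79a* (-7.01).

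A list of 23 other transcription factors of B cells showed which moved beside the 10. Into pro-B-like cells 5 of 20 were higher, *Id3* (mean log2 ratio 4.86), an inhibitor of TCF3, *Ets1* (3.87), *Spib* (3.83), *Erg* (2.11) and *Tcf4* (1.79), and 1 lower, *Ikzf2* (-4.38). Of all genes, 5.36% were higher and 3.43% lower there. Into cycling cells 2 of 19 were lower, *Erg* (-3.82) and *Tcf4* (-1.95), against 5.13% of all genes lower and 5.29% higher. Into small pre-B-like cells 4 of 19 were higher, *Sox4* (1.63), *Foxp1* (1.80), *Klf2* (2.09) and *Spib* (2.48), against 7.19% of all genes higher and 7.63% lower. Into mature B-like cells 3 of 19 were higher, *Bcl11a* (1.45), *Pou2f2* (1.60) and *Mef2c* (1.66), and 2 lower, *Sox4* (-4.27) and *Myb* (-4.33). At this step 2.15% of all genes were higher and 3.93% lower. In plasma-like cells, where 4.05% of all genes were higher and 14.8% lower, *Xbp1*, which drives secretion, was the 1 higher (3.99) and 13 of 19 were lower. These were *Runx1* (-1.07), *Mef2c* (-1.25), *Id3* (-1.39), *Spi1* (-1.45), *Sox4* (-1.48), *Tcf12* (-1.49), *Pou2f2* (-1.63), *Foxp1* (-1.77), *Irf8* (-1.89), *Klf2* (-1.89), *Spib* (-1.92), *Bcl11a* (-2.08) and *Ets1* (-2.10). With TMM scaling all genes went from 190 higher and 694 lower to 331 and 336, and this list was not recounted under it. In pDC-like cells 4 of 21 were higher, *Irf8* (3.21) and *Tcf4* (3.29), known regulators of dendritic cells, with *Ikzf2* (2.93) and *Xbp1* (2.16). There 3 were lower, *Ets1* (-2.21), *Pou2f2* (-3.01) and *Bhlhe41* (-4.84). Of all genes, 6.82% were higher and 3.19% lower in pDC-like cells.

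Levels on later days were set against day 0 in 7 classes, the earliest progenitors, GMP-like, pro-B-like, cycling and small pre-B-like, mature B-like and pDC-like cells. Of 127 values of a factor in 1 of these classes on a later day with at least 50 UMIs over both libraries, 1 was past 2-fold, against 3.24% of all gene values, and 110 were inside 1.5-fold. The share of all gene values inside 1.5-fold was not counted, so the 1.5-fold counts do not set the factors apart from other genes. The 1 value was *Ikzf3* in small pre-B-like cells at day 9, at 1.84 against 0.626 at day 0, or 2.94 times (interval 1.55 to 5.94, on 44 and 13 UMIs). It was no longer past 2-fold among barcodes with at least 1000 UMIs. *Ebf1* was inside 1.5-fold in 13 of 13 values, as were *Pax5* in 13 of 13, *Foxo1* in 11 of 11 and *Irf4* in 9 of 9. Among the others, cycling pre-B-like cells at day 3 had *Lef1* at 0.740 against 1.32 at day 0, a ratio of 0.560 (0.388 to 0.802), and *Ikzf1* in pro-B-like cells at day 6 was at 0.543 (0.266 to 1.04). At day 12 the mature B-like cells, 95 in all, had 0 of 8 tested factors past 2-fold of day 0, where 6.65% of 3021 genes were. Outside the 7 classes 3 values passed. *Ebf1* was at 0.314 of day 0 in neutrophil-like cells (1.78% of genes past 2-fold) and at 0.0668 in monocyte-like cells (1.67%) at day 12, where its free RNA level was 0.345 against 1.43 at day 0. *Irf4* was 2.14 times higher in monocyte-like cells at day 9 (1.31 to 3.60, 2.67% of genes), at 0.0806, below the free RNA level of 0.175.

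**Figure D4:**
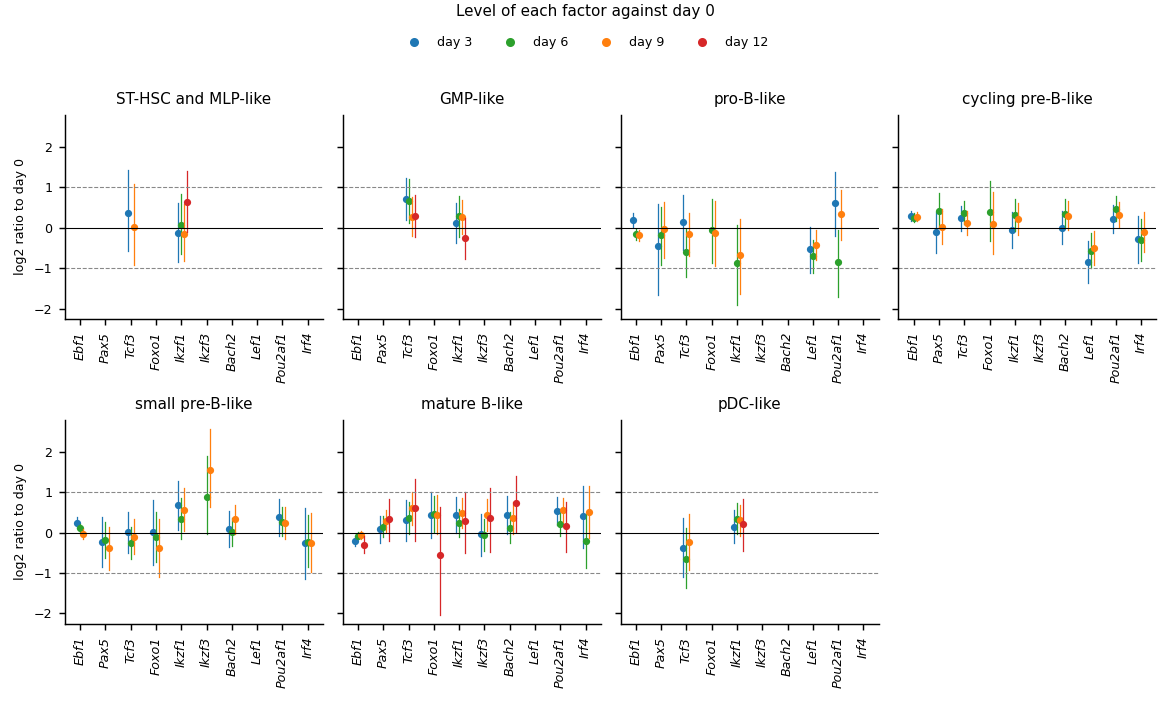
Log2 ratio of the level of each factor to day 0 in 7 classes, with 95% counting intervals. Points are later days by colour, dashed lines mark 2-fold, and only factors with at least 50 UMIs over both libraries are drawn. One point, *Ikzf3* in small pre-B-like cells at day 9, lies past 2-fold.

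The day 3 library held a cluster of 123 cells that no other library had, at a median of 19938 UMIs per cell. It carried markers of pro-B-like and cycling pre-B-like cells and was given no stage name, and apart from its own value in the plot of factors per cell it is kept out of the values above. Its level of *Cdkn2a* was 2.27 and that of *Tmem119* 1.81 per 10000, while the other pro-B-like and pre-B-like classes of day 3 had 2 and 1 UMIs of them. *Xist* was at 0.678 there and at 13.6 to 24.1 in those 4 classes, and *Ddx3y* and *Eif2s3y* gave no UMI in any of them. As the cluster is all from 1 library, its cells and that library cannot be told apart.

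Within the cluster, *Ebf1* was at 10.9 (interval 10.5 to 11.3), *Pax5* at 0.923, *Tcf3* at 1.47, *Foxo1* at 0.467, *Lef1* at 0.884 and *Pou2af1* at 1.34. Against the other 166 pro-B-like and pre-B-like cells of day 3, pooled, 6 of 9 factors were past 2-fold and lower, against 9.43% of 5684 genes lower and 5.65% higher (15.1% in all). They were *Bach2* (0.0581 of the level in the others, interval 0.0387 to 0.0849), *Irf4* (0.152, 0.0963 to 0.235), *Ikzf1* (0.363, 0.287 to 0.459), *Ebf1* (0.407), *Pou2af1* (0.459) and *Tcf3* (0.482). *Bach2* and *Irf4* reached the count minimum only with the UMIs of the other cells. With TMM scaling 3 of these remained past 2-fold, *Bach2*, *Irf4* and *Ikzf1*, and all genes were not recounted under it here. The median depth of the cluster was above that of each of the other classes, and its part in these ratios was not tested.

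Each stage taken alone gave a different count. Against the 24 *Igll1*-high cycling cells of the same library, 1 of 8 factors was past 2-fold, *Bach2* at 0.268 (0.149 to 0.495), against 3.72% of genes lower and 8.25% higher (12.0% in all), and *Ikzf1* was at 0.517 (0.372 to 0.729). *Pax5* (1.12, 0.789 to 1.64), *Lef1* (0.923, 0.662 to 1.31) and *Pou2af1* (0.947, 0.721 to 1.26) had intervals that held 1. Against pro-B-like cells 5 of 7 were lower (21.1% of genes lower and 20.1% higher, 41.2% in all). Against *Igll1*-low cycling cells 6 of 9 were lower and *Lef1* higher, at 2.34 times on 10 UMIs in those cells (17.7% of genes lower and 13.1% higher, 30.8% in all). Against small pre-B-like cells 7 of 8 were lower and *Lef1* higher, at 2.80 times on 4 UMIs (22.5% of genes lower and 21.5% higher, 44.0% in all). *Bach2* had 32 UMIs in all 123 cells, at 0.123 per 10000 (0.0838 to 0.173), which was below the free RNA of that library at 0.205. *Ikzf1* was at 0.578 (0.490 to 0.678), also below the free RNA, at 0.831.

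**Figure D5:**
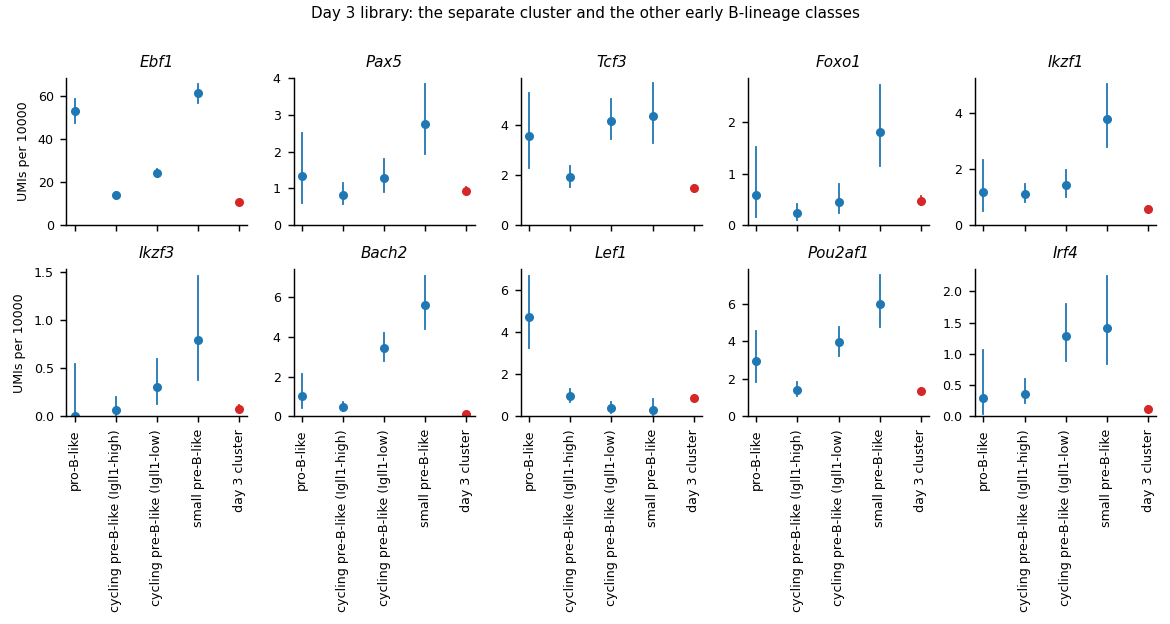
Level of each factor in the day 3 library (UMIs per 10000, axis from 0, 1 panel per gene) in 4 early B-lineage classes in blue and in the separate cluster of 123 cells in red, with 95% counting intervals. *Bach2* is at 0.123 in the cluster and at 0.456 to 5.61 in the other classes.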

How the data were processed

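Per the labels and the study's methods, the authors ran Cell Ranger 2.1.1 against mm10 on 10x 3' v2 libraries of cryopreserved marrow and deposited raw UMI counts for each gene in each barcode, not normalized and with the near-empty barcodes kept. Reads that fit several genes are not counted by this tool, and a cell's depth, from 500 UMIs up, limits each value. Barcodes with at least 500 UMIs and at most 10% mitochondrial UMIs were clustered with leidenalg 0.10.2 on a graph of shared neighbors (variable genes, 1000 per library and shared by 2 or more libraries, the 10 factors left out, 20 components, 20 neighbors, resolution 1, and a second round of clustering for B-lineage and progenitor cells). Cluster names came from hand-written markers, and 1517 cells in clusters of mixed or unclear markers stayed unnamed. Scrublet was run through scanpy 1.11.5, and its own calls did not work, so no doublets were removed. The 10 factors, their targets and the other factors were chosen with earlier results of these data known. Named genes were the 10 factors, the 3 genes most like each, and list genes past 2-fold in a comparison. No test was made. Levels have exact Poisson intervals, ratios exact conditional binomial intervals and shares exact Clopper-Pearson intervals. TMM factors came from edgeR 4.0.16. The counting of genes past 2-fold was tested on simulated data. Alternatives changed the cell filters, clustering, depth, scaling, count minimum, fold limit and libraries, and 2 groupings of the cycling cells were added after seeing the data. A target gene is not reported here.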

Additional observations from a re-analysis of the deposited data

How the results depend on the processing

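No paired analysis was possible because each day was 1 mouse and no replicate numbers join samples. Of 37 values of a factor past 2-fold between classes, 37 stayed so with barcodes of at least 1000 UMIs and without the top 5% of doublet scores. All 37 also stayed with finer clustering and without day 12, but these settings had little room to undo a call. Finer clusters took the name of the class that most of their cells already had. Day 12 entered only the pDC-like comparison, and leaving out a library can undo a call only through the count minimum. The number was 36 with 3 MAD mitochondrial limits or no limit, 32 with means over cells and 30 with TMM scaling. It was 16 after thinning to 500 UMIs, where some of the lost calls had smaller mean ratios and others kept theirs, and the cause was not tested. No value changed its direction. Thinning left 1 factor past 2-fold from pro-B-like to cycling cells, 1 from cycling to small pre-B-like, 4 from small pre-B-like to mature B-like, 2 from progenitors to pro-B-like, and 1 in the day 3 cluster, which had 3 with TMM scaling. A 1.5-fold limit gave 9 from cycling to small pre-B-like cells and 5 from mature B-like to plasma-like cells, and 9 came from cycling cells with much *Igll1* alone (where 21.4% of genes passed), a grouping chosen after seeing the data. Against day 0, the 1 value past 2-fold became 0 with at least 1000 UMIs, 3 with no mitochondrial limit, 2 with means over cells, 2 after thinning, 17 at 1.5-fold, 52 with no count minimum, and 3 when the day 3 cluster was counted as cycling cells, also chosen after seeing the data. All genes were recounted only for the *Igll1*-high start and, with TMM scaling, for the comparisons between classes outside the day 3 cluster. The other counts under changed settings therefore have no share of all genes beside them. Low-count factors, *Irf4* and *Ikzf3* before the small pre-B stage above all, are limited by depth.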
